A study of Rattus norvegicus with 6 samples.

Results

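Astrocytes are the glial cells that clear glutamate from synapses, turn it into glutamine, buffer water and potassium around vessels and synapses, and share metabolites through gap junctions. The 10 genes described here encode proteins of that work: Gfap, Aqp4, Slc1a3, Slc1a2, Aldh1l1, Fgfr3, Gja1, S100b, Aldoc and Glul. They were chosen by name as markers of astrocyte structure, glutamate uptake, water transport and metabolism, and all 10 were among the 16876 gene symbols of the count table and among the 11679 that passed the filter on low counts. RNA came from primary cultured rat cells labelled as microglia, shaken loose from mixed co-cultures and kept for 24 h with IR-813, a near-infrared dye, or with PSNPs, polystyrene nanoplastics, in 3 libraries each. The deposited columns of the IR-813 libraries are named con, no untreated library was analysed here, and the labels give no dose, strain or age and do not say whether replicates came from separate cultures. Every difference below is therefore of PSNPs against IR-813, whichever of them moved the gene, and p-values measure the spread between these libraries, which may be technical.

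In libraries labelled as microglia, astrocyte transcripts were abundant. The summed level of the 10 genes per length, from the authors' length-scaled values, was 2622 to 3439 with IR-813 and 3660 to 3867 with PSNPs, against 1289 to 1773 and 751 to 1175 for 16 microglia markers. The scaling of these values is not stated. They were read as length-scaled because a gene's value was a nearly fixed multiple of its count in all libraries, with a multiple that differed between genes. Of those 16 markers 10 fell and 0 rose with PSNPs. Beside this count and those of the other markers below, 20.1% of all tested genes fell and 20.9% rose. The microglia marker gene Aif1 held 303 to 1350 counts per library and P2ry12 held 23 to 166. Oligodendrocyte-lineage markers fell in 14 of 16 cases and rose in 1, and their summed level per length was 3142 to 3642 with IR-813 and 2019 to 2459 with PSNPs. The summed per-length level of 18 neuron markers was 200.4 to 208 with IR-813 and 98.0 to 104 with PSNPs, and of the 16 tested 11 fell and 1 rose. For 16 fibroblast, pericyte and endothelial markers that sum was 705 to 751 with IR-813 and 481 to 773 with PSNPs. Of the 10 tested, 4 fell and 0 rose. Another 6 of the 16 were too low to test. Fn1 held 52796 to 123643 counts per library and Tagln 1514 to 8025. Named after their values were seen, Col1a1 held 324 to 1078, Pdgfrb 502 to 1039 and Col3a1 95 to 681. Col1a2 was at 0 counts in every library and Cldn5 at 0 or 1, and why Col1a2 stood at 0 was not tested. The part of these other cell types in the results on astrocyte genes was not tested, and in bulk RNA fewer cells of a type and less RNA per cell cannot be told apart. Total counts lay between 19166605 and 22553507 per library. PSNPs replicate 3 stood apart from replicates 1 and 2 on the second principal component (35.4 against −22.9 and −24.3, 15.6% of the variance), so named genes whose call changes without it are also given without it.

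The windows around the starts of 3 of the genes are shown: Aldh1l1 because it rose most, Fgfr3 because it was the only member that fell, and Slc1a2 because it differed among the PSNPs libraries and its count was not a fixed multiple of its deposited level, with 2 starts listed. Each window runs from 250 bases before to 50 bases after a start and comes from RefSeq on GRCr8, not the build named for the deposited files. Capitals mark the CCAAT box (CCAAT) and the GC box (GGGCGG), searched on both strands.
Aldh1l1, chr4:124616970-124617269 of GRCr8, plus strand: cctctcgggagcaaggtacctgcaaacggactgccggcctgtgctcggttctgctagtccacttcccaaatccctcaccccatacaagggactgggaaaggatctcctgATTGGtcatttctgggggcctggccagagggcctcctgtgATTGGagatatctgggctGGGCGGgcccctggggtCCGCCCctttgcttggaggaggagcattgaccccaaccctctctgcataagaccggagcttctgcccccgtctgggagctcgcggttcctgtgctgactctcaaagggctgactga
Fgfr3, chr14:81227160-81227459 of GRCr8, minus strand: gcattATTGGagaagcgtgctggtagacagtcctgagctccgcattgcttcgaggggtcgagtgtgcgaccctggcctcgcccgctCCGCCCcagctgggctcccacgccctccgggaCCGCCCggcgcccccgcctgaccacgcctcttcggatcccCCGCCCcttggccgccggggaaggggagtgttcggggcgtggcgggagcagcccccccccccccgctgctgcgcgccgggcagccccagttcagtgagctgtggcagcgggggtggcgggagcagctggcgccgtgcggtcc
Slc1a2 upstream start, chr3:109459859-109460158 of GRCr8, plus strand: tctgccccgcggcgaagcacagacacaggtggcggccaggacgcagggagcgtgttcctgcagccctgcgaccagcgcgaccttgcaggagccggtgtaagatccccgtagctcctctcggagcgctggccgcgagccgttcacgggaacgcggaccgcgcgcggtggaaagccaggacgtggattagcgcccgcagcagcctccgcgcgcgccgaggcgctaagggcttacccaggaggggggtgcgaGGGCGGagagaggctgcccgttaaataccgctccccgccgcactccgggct
Slc1a2 downstream start, chr3:109507697-109507996 of GRCr8, plus strand: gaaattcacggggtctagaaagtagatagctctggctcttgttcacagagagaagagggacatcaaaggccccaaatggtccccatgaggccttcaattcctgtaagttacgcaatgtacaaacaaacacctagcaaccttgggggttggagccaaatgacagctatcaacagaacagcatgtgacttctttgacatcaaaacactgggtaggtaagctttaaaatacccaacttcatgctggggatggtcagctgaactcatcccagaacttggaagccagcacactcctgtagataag
The Aldh1l1 window held 2 CCAAT boxes and 2 GC boxes, and the Fgfr3 window 1 and 3. A GC box occurred in 33.1% and a CCAAT box in 37.5% of all 33469 RefSeq windows of the same length. The upstream Slc1a2 window was 71.0% G and C with 39 CpG dinucleotides, and the downstream one 46.3% with 2, against medians of 51.7% and 7 over all windows. Over the 10 genes, 6 had a CCAAT box and 6 a GC box in at least 1 window, 3 had the NFI motif (TTGGCA, in 14.0% of all windows), 2 a SOX site (ACAAAG, in 18.8%) and 1 an AP-1 site (TGACTCA, in 4.63%). The TATA box (TATAAA, in 14.2%) and the STAT site (TTCNNNGAA, in 8.87%) were not found in the members' windows. The 10 genes had 15 windows in all, 1 to 3 each, so counts per gene are not on the scale of shares per window. Matches are descriptions of these letters only. Both motifs of the Fgfr3 window were also in the window of Aldh1l1.

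Of the 10 astrocyte genes, 5 rose with PSNPs (Aldh1l1, Glul, S100b, Aldoc and Gja1), 1 fell (Fgfr3) and 4 did not pass the test (Gfap, Aqp4, Slc1a3 and Slc1a2). Calls are by the quasi-likelihood test of edgeR, adjusted by Benjamini-Hochberg over all tested genes, at an adjusted p under 0.05. Of all tested genes 20.9% were called higher and 20.1% lower, or 41% in either direction, and among the 3992 genes at least as abundant as the lowest member 24.4% and 16.2%. The median log2 fold change was 0.41 over the 10 members and −0.01 over all tested genes. The PSNPs and IR-813 libraries did not overlap for the same 6 members, 5 above and 1 below, where all tested genes did so in 61.4% of cases, 30% above and 31.4% below. With PSNPs replicate 3 left out 6 of the 10 rose and 1 fell, against 30.4% and 29.5% of all genes in that fit. Leaving out any other library gave fewer calls among the members and over all genes alike. With PSNPs replicate 1 left out 3 members rose (16.8% of all genes higher and 16.2% lower), and with PSNPs replicate 2 left out 2 (18.9% and 18.2%). With IR-813 replicate 1 left out 2 members rose, Aldh1l1 and Glul (12% and 13.3% of all genes), with IR-813 replicate 2 left out 1, Aldh1l1 (11.4% and 12.5%), and with IR-813 replicate 3 left out 4 (15.4% and 15.4%). Fgfr3 fell in each of these fits. Levels below are CPM, counts scaled to a common depth, on library sizes scaled by TMM, and are compared between libraries, not between genes.

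**Figure D1:**
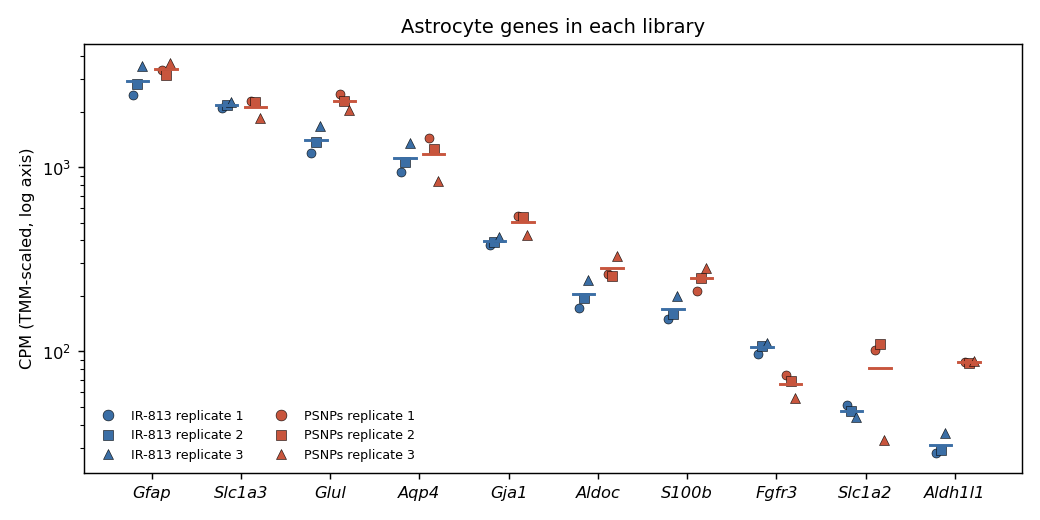
CPM of the 10 astrocyte genes on a log axis, with 1 point per library (blue IR-813, red PSNPs, symbols for replicates) and a line at each group's mean. Aldh1l1, Glul, S100b, Aldoc and Gja1 lie higher in all 3 PSNPs libraries, Fgfr3 lies lower, and PSNPs replicate 3 (red triangle) is the lowest of the 6 libraries for Slc1a2, Aqp4 and Slc1a3.

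Gfap encodes the intermediate filament protein that gives astrocytes their fibrous skeleton. Its level was 2473, 2831 and 3545 CPM in the IR-813 libraries and 3396, 3176 and 3662 CPM in the PSNPs libraries. IR-813 replicate 3 lay inside the range of the PSNPs libraries, so the groups overlapped, and the log2 fold change of 0.21 ± 0.15 (estimate ± SE) did not pass (adjusted p = 0.308 by edgeR's test). S100b, a calcium-binding protein gene of astrocytes that oligodendrocyte-lineage cells also use, stood at 151, 159 and 200.1 CPM with IR-813 and at 214, 250.2 and 283 CPM with PSNPs. It rose by 0.55 ± 0.15 on the log2 scale (adjusted p = 0.0224 by edgeR's test), with all PSNPs libraries above all IR-813 libraries. That call was lost without IR-813 replicate 1 (adjusted p = 0.0873), IR-813 replicate 2 (0.0909) or PSNPs replicate 2 (0.0506).

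Of the members that handle glutamate, the enzyme gene Glul rose and the carrier genes Slc1a3 and Slc1a2 did not pass. Slc1a3 encodes GLAST, the glutamate carrier of developing and cultured astrocytes, and its level was 2097, 2178 and 2252 CPM with IR-813 and 2296, 2252 and 1846 CPM with PSNPs. PSNPs replicate 1 was above all IR-813 libraries, replicate 2 was level with the highest of them, and replicate 3 was below them all. The log2 fold change was −0.03 ± 0.12 (adjusted p = 0.854 by edgeR's test) with all 6 libraries and 0.07 ± 0.05 (adjusted p = 0.310) without PSNPs replicate 3. Glul encodes glutamine synthetase, which turns the glutamate taken up into glutamine. With IR-813 it stood at 1194, 1368 and 1666 CPM and with PSNPs at 2492, 2301 and 2055 CPM, a rise of 0.70 ± 0.15 on the log2 scale (adjusted p = 0.0100). The lowest PSNPs library was above the highest IR-813 library, and the call was lost without IR-813 replicate 2 (adjusted p = 0.0510). As counts of 1 library over counts of the same library, Glul to Slc1a3 was 0.569, 0.628 and 0.740 with IR-813 and 1.09, 1.02 and 1.11 with PSNPs, without overlap (exact 2-sided permutation test, p = 0.1, the smallest that 3 against 3 allows, and 0.15 adjusted over the 6 ratios computed).

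Slc1a2 encodes GLT-1, the main glutamate carrier of mature astrocytes, and it varied most among the PSNPs libraries of the 10 genes (coefficient of variation 51.7% with PSNPs and 7.18% with IR-813). Its level was 51.0, 47.5 and 44.2 CPM with IR-813 and 101.6, 109 and 32.9 CPM with PSNPs. PSNPs replicates 1 and 2 lay at 2.14 and 2.29 times the IR-813 mean, and replicate 3 at 0.692 times, below every IR-813 library. With all 6 libraries the log2 fold change was 0.77 ± 0.40 and did not pass (adjusted p = 0.162 by edgeR's test). Without PSNPs replicate 3 it was 1.15 ± 0.07 (adjusted p = 2e-05), a call that rests on 2 PSNPs libraries. The deposited level of this gene was also not a fixed multiple of its count. Relative to the IR-813 mean, CPM per unit of deposited level was 1.02 in PSNPs replicates 1 and 2 and 1.23 in replicate 3, whereas for the other 9 members it stayed between 0.992 and 1.00 in all libraries. Of the 8705 genes with a deposited level above 3 in all libraries, 99.9% varied less than Slc1a2 in this ratio. How the authors scaled these values is not stated, single transcripts were not analysed here, and what moved the ratio was not tested.

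**Figure D2:**
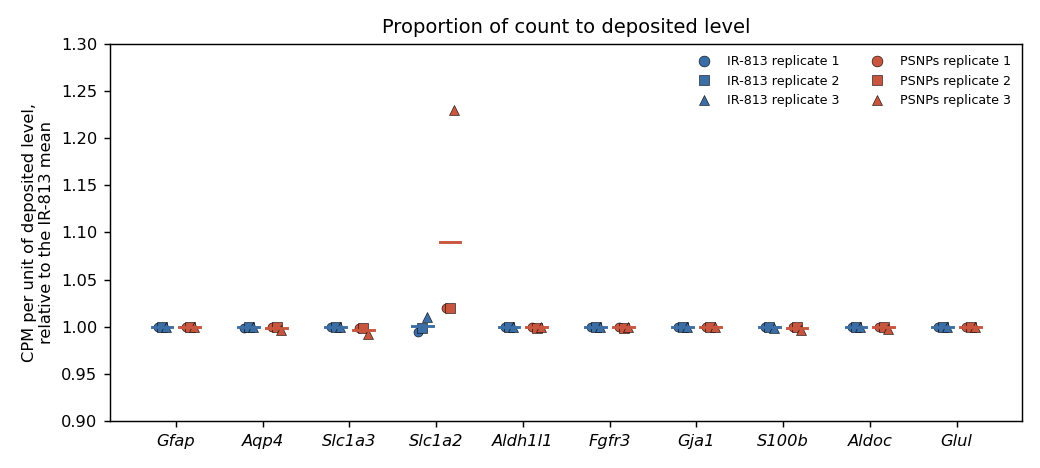
CPM divided by the authors' deposited length-scaled level, relative to its IR-813 mean, for the 10 genes in 6 libraries (symbols as in the plot of CPM, lines for group means). Points sit between 0.992 and 1.00 for the other genes, and Slc1a2 reaches 1.23 in PSNPs replicate 3.

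Aqp4 encodes the water channel of astrocyte endfeet, and Gja1 encodes connexin 43, the main gap junction protein of astrocytes. Aqp4 stood at 944, 1062 and 1355 CPM with IR-813 and at 1439, 1252 and 846 CPM with PSNPs, and the groups overlapped. Its log2 fold change was 0.07 ± 0.22 (adjusted p = 0.806 by edgeR's test). PSNPs replicate 3 was again the lowest library, and the estimate without it was 0.27 ± 0.14 (adjusted p = 0.145). The count of Aqp4 per count of Gfap was 0.382, 0.375 and 0.382 in the IR-813 libraries, the closest agreement of the ratios computed, and 0.424, 0.394 and 0.231 with PSNPs, in which replicate 3 stood apart (exact 2-sided permutation test, p = 1). For Gja1 the levels were 380.3, 393 and 418 CPM with IR-813 and 546, 534 and 428 CPM with PSNPs. The groups did not overlap, with PSNPs replicate 3 closest to the IR-813 libraries. Gja1 rose by 0.34 ± 0.11 on the log2 scale at an adjusted p of 0.0477 by edgeR's test, just under the threshold, and by 0.44 ± 0.05 (adjusted p = 0.000362) without PSNPs replicate 3. Leaving out any of the other 5 libraries ended the call, with adjusted p between 0.0827 and 0.158, as did the replicate number as a block (0.0976) and library size alone as the scaling (0.102).

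Aldh1l1 encodes a cytosolic folate enzyme, 10-formyltetrahydrofolate dehydrogenase, that is widely used to mark astrocytes. It showed the largest and most even change of the 10, from 27.9, 29.2 and 35.9 CPM with IR-813 to 87.7, 86.8 and 89.1 CPM with PSNPs. The fold was 2.83 (log2 1.50 ± 0.12, adjusted p = 0.000197 by edgeR's test), and under 12 alternatives the log2 value stayed between 1.43 and 1.62 with the call kept each time. Per count of Gfap its count was 0.0113, 0.0103 and 0.0101 with IR-813 and 0.0258, 0.0273 and 0.0243 with PSNPs, without overlap (exact 2-sided permutation test, p = 0.1). Aldoc encodes the brain isoform of the glycolytic enzyme aldolase. It stood at 171, 196 and 244 CPM with IR-813 and at 264, 256 and 331 CPM with PSNPs. The groups did not overlap, and it rose by 0.48 ± 0.16 on the log2 scale (adjusted p = 0.0475 by edgeR's test). The call was lost without IR-813 replicate 1 (adjusted p = 0.152), IR-813 replicate 2 (0.146), PSNPs replicate 1 (0.0721) or PSNPs replicate 2 (0.0522).

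Fgfr3 encodes a fibroblast growth factor receptor of astrocytes and their precursors. Its level was 96.7, 106.9 and 111 CPM with IR-813 and 74.0, 68.6 and 56.0 CPM with PSNPs. All PSNPs libraries were below all IR-813 libraries, and it fell by 0.67 on the log2 scale (SE 0.12, adjusted p = 0.00565 by edgeR's test), with the call kept under all 12 alternatives. Aldh1l1 and Fgfr3 thus moved in opposite directions within the list. The ratio of their counts was 0.288, 0.274 and 0.323 with IR-813 and 1.19, 1.27 and 1.59 with PSNPs, a comparison that no scaling between libraries touches (exact 2-sided permutation test, p = 0.1, the smallest possible).

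**Figure D3:**
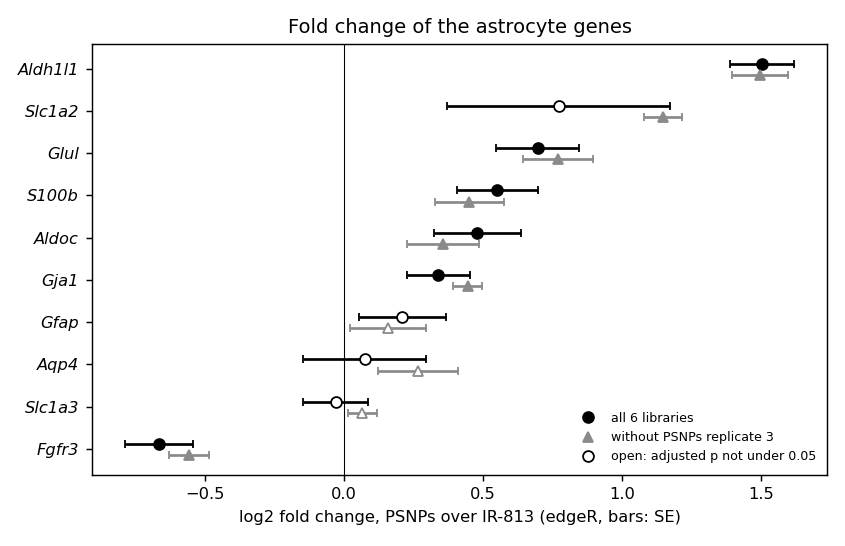
Log2 fold change of each gene, PSNPs over IR-813, with its SE as the bar (circles: all 6 libraries, triangles: without PSNPs replicate 3, open symbols: did not pass). Values run from −0.67 for Fgfr3 to 1.50 for Aldh1l1, and Slc1a2 moves from 0.77 to 1.15 with a much smaller SE once PSNPs replicate 3 is left out.

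The members varied between libraries of 1 group in a shared way. Among the IR-813 libraries replicate 3 was the highest for 9 of the 10 genes and replicate 1 the lowest for 9, whereas over all tested genes replicate 3 was the highest for 40.3% and replicate 1 the lowest for 36.1%. Slc1a2 was the exception, with its highest level in replicate 1. The 16 microglia markers (1635, 1963 and 2202 CPM in sum) and the 16 oligodendrocyte-lineage markers (7668, 8110 and 8906 CPM) were also lowest in IR-813 replicate 1 and highest in replicate 3. Fibroblast, pericyte and endothelial markers ran the other way (3348, 3267 and 2989 CPM). So did the family relatives described below (9539, 9241 and 9086 CPM) and the genes of glutamate and glutamine handling (4502, 4246 and 3814 CPM). Neuron markers were highest in replicate 2 (599.4, 617.7 and 599.3 CPM). The remaining lists of related genes were lowest in replicate 1 and highest in replicate 3. Among the PSNPs libraries the members split. Replicate 3 was the highest for Gfap, Aldh1l1, S100b and Aldoc and the lowest for the other 6, the glutamate carriers, Glul, Aqp4, Gja1 and Fgfr3. Over all tested genes it was the highest for 44.9% and the lowest for 44.1%.

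Levels of different genes were compared per length, on the authors' length-scaled values with the log2 and its pseudocount of 1 undone. With IR-813 the order began with Gfap (1125 ± 206, SD, n = 3), Glul (591 ± 99.4), Slc1a3 (558 ± 19.2) and Aqp4 (222 ± 41.5). Aldoc (139 ± 25.0), Gja1 (129 ± 6.16) and S100b (125 ± 19.4) overlapped as neighbours, as did Glul and Slc1a3, and Slc1a2 (54.3 ± 4.31), Fgfr3 (33.4 ± 2.35) and Aldh1l1 (11.3 ± 1.55) closed the order without overlap. With PSNPs, Glul (961 ± 75.2) no longer overlapped Slc1a3 (549.7 ± 51.5), and Aldh1l1 (32.1 ± 1.04) lay above Fgfr3 (21.1 ± 2.58), again without overlap. The other neighbours that did not overlap with PSNPs were Gfap with Glul, Slc1a3 with Aqp4, and Gja1 with Slc1a2.

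Shares of the summed per-length level of the 10 genes do not depend on the scaling between libraries. Glul made up 19.7% ± 0.591 of it with IR-813 and 25.7% ± 1.33 with PSNPs (SD, n = 3 each). The share of Slc1a3 was 18.8% ± 1.92 and 14.7% ± 1.14, that of Fgfr3 1.12% ± 0.0838 and 0.564% ± 0.0561, and that of Aldh1l1 0.378% ± 0.0103 and 0.860% ± 0.0465. For these 4 genes the groups did not overlap (exact 2-sided permutation test, p = 0.1 each, the smallest that 3 against 3 allows, with 10 shares compared and a Benjamini-Hochberg adjusted p of 0.25). A share is part of a whole and can fall where the gene's own level does not. The level of Slc1a3 itself was 558 ± 19.2 with IR-813 and 549.7 ± 51.5 with PSNPs, and those groups overlapped. The share of Gfap was 37.5% ± 1.63 with IR-813 and 35.0% ± 3.64 with PSNPs (p = 0.3 by the same exact test), with 39.3% in IR-813 replicate 3 and 39.2% in PSNPs replicate 3.

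**Figure D4:**
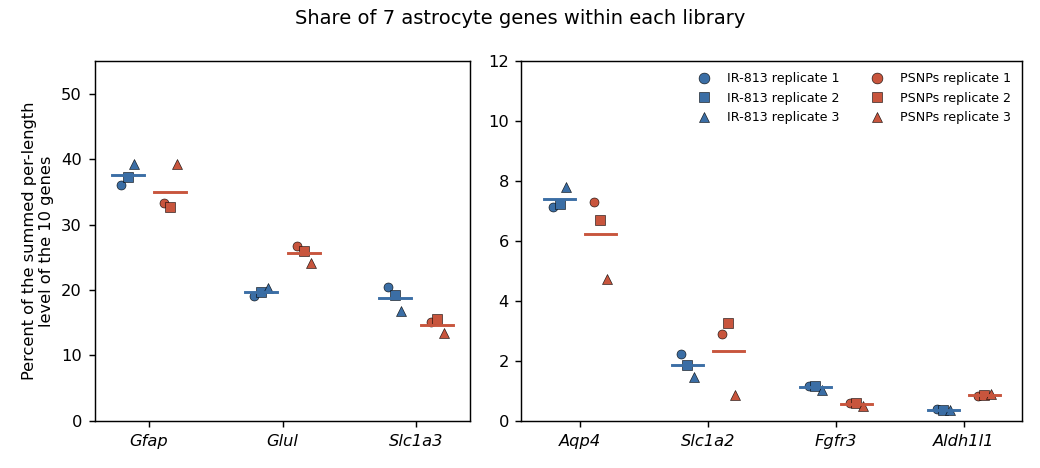
Percent of the summed per-length level of the 10 genes taken by 7 of them in each library (blue IR-813, red PSNPs, lines for group means). Glul averages 19.7% with IR-813 and 25.7% with PSNPs, Slc1a3 and Fgfr3 take less with PSNPs in all 3 libraries, and Aqp4 and Slc1a2 are lowest in PSNPs replicate 3.

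Related genes were read from 6 lists chosen by function, with 138 tested genes in all. Of these 34.1% rose and 21.0% fell, against 20.9% and 20.1% of all tested genes. Their median log2 fold change was 0.14. Of 21 tested family relatives of the 10 genes, 6 rose and 4 fell. With IR-813 replicate 1, 2 or 3 left out 3 rose, where 12%, 11.4% and 15.4% of all genes were higher. The other intermediate filament genes of astrocytes differed from one another. Vim, vimentin, rose by 0.84 ± 0.13 on the log2 scale, to a mean of 9336 CPM (adjusted p = 0.00309 by edgeR's test), while Nes, nestin, stood at 1401 ± 243 and 1442 ± 138 CPM and Synm at 10.7 ± 1.80 and 8.03 ± 3.30 CPM without passing. Of 3 other listed genes of the glutamate and neutral amino acid carrier family, 2 fell and 1 did not pass. Slc1a1, the glutamate carrier best known from neurons, fell by 1.01 on the log2 scale. Slc1a4, a carrier gene for serine and alanine, fell by 1.29, and the glutamine carrier gene Slc1a5 was at −0.22 ± 0.12 (adjusted p = 0.160).

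Among the growth factor receptors, Fgfr1 rose by 0.30 ± 0.08 while Fgfr3 fell, and Fgfr2 was at −0.14 ± 0.11 (adjusted p = 0.320 by edgeR's test). Aldoa, the ubiquitous aldolase, rose by 0.37 ± 0.12. The calls of Fgfr1 and Aldoa were lost on leaving out any library other than PSNPs replicate 3, with adjusted p of 0.0696 to 0.108 and 0.0519 to 0.141. Aldh1l2, the mitochondrial counterpart of Aldh1l1, fell by 0.46 on the log2 scale, and that call was lost without IR-813 replicate 1, 2 or 3 or PSNPs replicate 2 (adjusted p 0.0655 to 0.101). Of the connexins, Gjb2 fell from 2.52 ± 0.669 to 0.132 ± 0.0700 CPM, and Gjb6, the connexin 30 gene of mature astrocytes, held at most 4 counts per library. Aqp9, a channel for water and glycerol, rose from 1.85 ± 0.288 to 4.89 ± 0.752 CPM. Of the S100 genes, S100a10 rose by 0.99 ± 0.19 and S100a6 by 0.87 ± 0.24, the latter with a call lost without any single IR-813 library (adjusted p 0.0735 to 0.0956).

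Around the glutamate carriers, 5 of 22 tested genes of glutamate and glutamine handling rose and 9 fell. Of all tested genes 20.9% rose and 20.1% fell. The median log2 fold change of the list was −0.45. Slc6a9, the glycine carrier GLYT1, fell from 115 ± 17.6 to 18.8 ± 1.13 CPM and Psat1, a serine synthesis enzyme, from 160.1 ± 4.50 to 87.1 ± 4.82 CPM. The abundant heavy chain Slc3a2 of amino acid exchangers fell by 0.60 on the log2 scale, a call lost without IR-813 replicate 1 or 2 or PSNPs replicate 1 (adjusted p 0.0539 to 0.0622 by edgeR's test). Its partner Slc7a11, the cystine and glutamate exchanger, was at −0.58 ± 0.33 (adjusted p = 0.200), and Glud1, glutamate dehydrogenase, at 0.17 ± 0.08 (adjusted p = 0.139), which was 0.22 and passed without PSNPs replicate 3 (adjusted p = 0.00768). The genes of this list that rose, named after their values were seen, were Grm3 (1.91), Slc25a18 (1.08), Aldh4a1 (0.84), Slc38a3 (0.54) and Got2 (0.33, log2 fold changes), which encode a glutamate receptor, a mitochondrial glutamate carrier, a proline catabolism enzyme that yields glutamate, a glutamine carrier and a mitochondrial aminotransferase. The call of Got2 was lost without IR-813 replicate 1 or 2 (adjusted p 0.0735 and 0.0796).

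Among 19 tested genes of water, potassium and endfoot function, 6 rose and 1 fell, against 20.9% and 20.1% of all tested genes. Ezr, ezrin of fine astrocyte processes, rose from 479.8 ± 57.3 to 870.1 ± 35.1 CPM. Dag1, dystroglycan, which anchors the endfoot complex that holds Aqp4, rose by 0.52 ± 0.14 on the log2 scale, a call lost without either IR-813 replicate 1 or 2 or PSNPs replicate 1 or 2 (adjusted p 0.0570 to 0.0873 by edgeR's test). Mlc1, a membrane protein gene of astrocyte junctions, was at 0.12 ± 0.11 (adjusted p = 0.399). Without PSNPs replicate 3, 11 genes of this list rose and 2 fell, against 30.4% and 29.5% of all genes in that fit.

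Energy metabolism genes rose in 12 of 23 tested cases and fell in 4, against 20.9% and 20.1% of all tested genes. Their median log2 fold change was 0.29. Cpt1a, which brings fatty acids into mitochondria, rose from 152 ± 4.64 to 407 ± 67.8 CPM, and Ldha, lactate dehydrogenase A, from 575 ± 17.2 to 1108 ± 143 CPM. The genes that fell were Acsbg1 (−0.39), an acyl-CoA synthetase gene whose call was lost without IR-813 replicate 2 or 3 or PSNPs replicate 2 (adjusted p 0.0750 to 0.0814 by edgeR's test), and, named after their values were seen, the glucose carrier gene Slc2a1 (−0.46), the aminotransferase gene Gpt2 (−0.78) and the fatty acid oxidation gene Hadhb (−0.41, log2 fold changes). The call of Hadhb was lost without IR-813 replicate 2 (adjusted p = 0.0553). With either IR-813 replicate 1 or IR-813 replicate 2 left out 6 rose, in the fits where 12% and 11.4% of all genes were higher in place of 20.9%. In the latter case 2 fell, where 12.5% of all genes were lower in place of 20.1%.

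Of 18 tested astrocyte transcription factor genes, 6 rose and 2 fell, against 20.9% and 20.1% of all tested genes. Sox9, a factor of astrocyte fate, rose from 155 ± 1.92 to 208 ± 17.0 CPM, Emx2 from 47.3 ± 3.86 to 83.8 ± 4.80 CPM and Lhx2 from 79.0 ± 5.56 to 115 ± 6.89 CPM. Sox2 rose by 0.34 ± 0.08 and Stat3 by 0.35 ± 0.11 on the log2 scale. Leaving out any library other than PSNPs replicate 3 ended the call of Stat3 (adjusted p 0.0789 to 0.148 by edgeR's test), and leaving out IR-813 replicate 1 or 2 or PSNPs replicate 1 ended that of Sox2 (0.0516 to 0.0890). The Notch target genes Hes1 (−0.70) and Hes5 (−2.43, log2 fold changes) were the 2 that fell and were named after their values were seen. Hes5 held 16 to 21 counts per library with IR-813 and 1 to 5 with PSNPs, and the call of Hes1 was lost without IR-813 replicate 1 or 2 (adjusted p 0.0614 and 0.0708). Without PSNPs replicate 3, 13 of these genes rose, in the fit where 30.4% of all genes were higher. Without IR-813 replicate 1, IR-813 replicate 2 or PSNPs replicate 1 there were 3, against 12%, 11.4% and 16.8% of all genes. In the first and second of these cases 1 fell, against 13.3% and 12.5% of all genes.

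Of 35 tested other astrocyte markers, 12 rose and 9 fell, against 20.9% and 20.1% of all tested genes. Their median log2 fold change was 0.04. Ptn, pleiotrophin, rose from 1225 ± 55.4 to 2895 ± 292 CPM and Slco1c1, a thyroid hormone carrier gene, from 2.37 ± 0.323 to 10.8 ± 0.802 CPM. Apoe, the main apolipoprotein gene of astrocytes, which microglia also express, fell from 6424 ± 665 to 2981 ± 765 CPM, and Gabbr2, a GABA-B receptor subunit gene, from 15.7 ± 2.25 to 4.14 ± 0.535 CPM. Sparc, a matrix-binding protein gene, rose by 0.35 ± 0.10 on the log2 scale, with a call lost without IR-813 replicate 1 or 2 or PSNPs replicate 1 or 2 (adjusted p 0.0509 to 0.132 by edgeR's test).

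**Figure D5:**
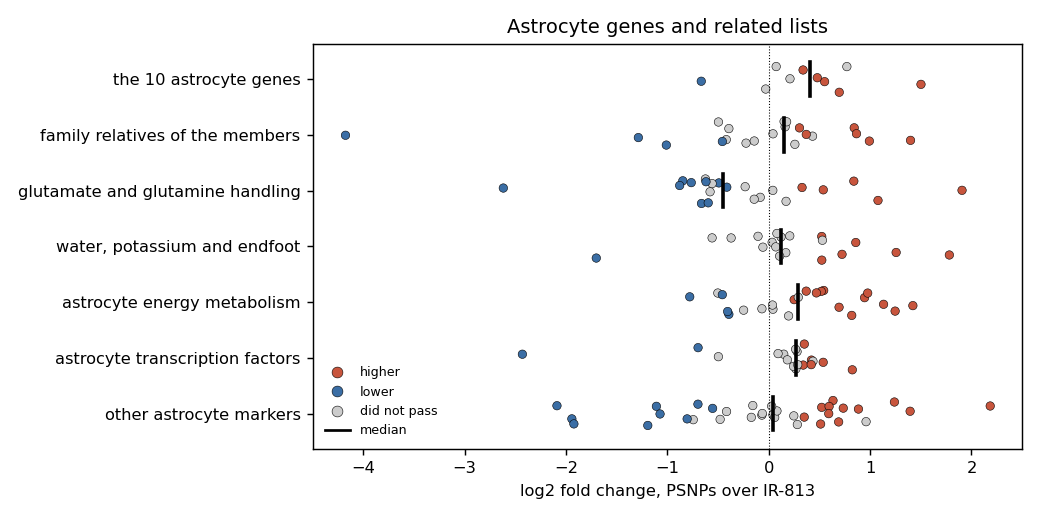
Log2 fold changes, PSNPs over IR-813, of the 10 astrocyte genes and of the tested genes of 6 related lists (red rose, blue fell, grey did not pass, black bar the median). The median is 0.41 for the 10 genes and lies between −0.45 for glutamate and glutamine handling and 0.29 for energy metabolism in the related lists, and each list holds genes on both sides of 0.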

How the data were processed

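Raw counts of reads for each gene symbol, as whole numbers, were deposited by the authors for 6 libraries, with 1 file of log2 values per library. The labels' protocols do not say how the deposited log2 values were scaled. The submitters' processing notes name bcl2fastq and mRatBN7.2. Aligner, counter, annotation and strand setting: not given in the sources used here. Groups came from the titles, and columns were joined through each library's own file. Counts were filtered with filterByExpr, scaled by TMM and tested with edgeR 4.0.16 (quasi-likelihood) in R 4.3.3 with treatment as the only term, and Benjamini-Hochberg adjustment over 11679 genes. The script was tested on simulated data. Per-length levels are the deposited log2 values with the log and a pseudocount of 1 undone. SEs are the log2 fold change over the root of F.

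The members and gene lists were chosen with earlier results of these data known. All 10 members were named. From each related list the text names the 3 genes with the highest mean CPM and the 2 with the smallest p, and any family relative. Lists held 249 symbols, of which 244 were matched, 2 by synonym, and the rest were not analysed here. A gene that the naming rule covers is not reported here. Sequences are RefSeq windows of GRCr8. Libraries had no stated molecular identifiers, so counts are not numbers of molecules. Alternatives used DESeq2 1.42.0, limma 3.58.1 on the deposited log2 values, library size or RLE scaling, no filter, a replicate block, and each library left out.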

Additional observations from a re-analysis of the deposited data

How the results depend on the processing

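Fgfr3 and Aldh1l1 kept their calls under all 12 alternatives, and Gfap did not pass under any. With library size alone as the scaling, 3 of the 10 members rose, and Aqp4 and Nes stood at −0.0034 and −0.030. Over all genes 1943 were then higher and 2852 lower, against 2439 and 2351 with TMM, and the median shift in log2 fold change was −0.0743. Leaving out 1 library at a time gave 1 to 6 members that rose and 1 that fell, and over all genes 1339 to 3591 higher and 1473 to 3478 lower. The ranges with 1 library left out crossed 0 for Aqp4 (−0.094 to 0.27), Slc1a3 (−0.086 to 0.066), Nes (−0.080 to 0.17), Aqp1 (−0.32 to 0.75) and S100a16 (−0.019 to 0.31), which did not pass. With the deposited log2 values Slc1a2 was at 0.47 (adjusted p = 0.454 by limma). Same-numbered libraries were not paired by the labels, and their deviations correlated at −0.00585, 0.0145 and 0.121. With the replicate number as a block 4 members rose, 2035 genes were higher and 2124 lower in all. Among the named genes the block ended the calls of Gja1, Fgfr1, Aldoa, Dag1, Acsbg1, Stat3 and Sparc (adjusted p 0.0522 to 0.0976 by edgeR) and brought Slc7a11 under the threshold (−0.65, adjusted p = 0.0434). Of the 6 libraries, 2 correlated best with their own number. The cause of these differences was not tested. The lowest count of any member in any library was 623, and 3 libraries a group limit every p from a permutation to 0.1 or more.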
